A study of Mus musculus with 23 samples.

Results

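The 10 genes described here, Gabra4, Scn11a, Gpr158, Syndig1l, Reln, Sema3e, Cntn3, Cntn5, Cdh19 and Nes, are best known from neurons, glia or neural progenitors, and were read in plasma cells and myeloma. They are 10 of the 24063 genes in the deposited count tables. They were picked by symbol because earlier results from these libraries showed levels restricted to certain tumour lines. Their levels in lines and controls are therefore the basis of the choice and are given as a description, with no test. Tests are given only for what the choice did not use: the site of growth within a line, the neighbouring genes, and the relatives and partners of the 10.

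RNA was sequenced from mouse cells sorted as CD138+B220-, the surface phenotype of plasma cells. The 3 control libraries came from bone marrow (BM) of mice that carry only IgG1-Cre, a Cre made in B-lineage cells that switch to IgG1. The VQ lines, numbered D5, D4, D2 and D1, have the genotype Vκ*MYC; NrasLSL Q61R/+; IgG1-Cre, that is, a MYC transgene that becomes active in germinal centre B cells plus an oncogenic Nras allele that Cre switches on. The line t-VK12653 carries Vκ*MYC without the Nras allele. Tumour libraries came from recipient mice given cells of 1 donor per line, with 4 libraries for each of the 5 lines: VQ-D1 and t-VK12653 from bone marrow and spleen, VQ-D2 from spleen and lymph node (LN), VQ-D5 from bone marrow and lymph node, and VQ-D4 from 1 site each of bone marrow, liver, spleen and lymph node. The spread within a line is a spread between libraries of 1 donor, and numbers in the names of the deposited tables, not the labels, point to shared recipients within a line. No source used here gives the age of the mice.

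Total counts were 2685579 to 10047314 per library (median 4626666), and the ribosomal precursor Rn45s took 16.4% to 27.3% of them. Levels are in CPM, counts scaled to an equal library size with TMM factors, and n is the number of libraries. Plasma cell genes were present in every group: Sdc1, which encodes CD138, averaged 330.2 to 1028 CPM and Xbp1, a plasma cell transcription factor, 1314 to 2852 CPM. Libraries of a group differed by more than sampling noise, with a chi-square per degree of freedom of 4.83 to 24.0.

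In the nervous system these genes serve different steps of signalling and wiring. Gabra4, Scn11a, Gpr158 and Syndig1l encode membrane proteins of synaptic and electrical signalling, Reln and Sema3e encode secreted guidance proteins, Cntn3, Cntn5 and Cdh19 encode adhesion proteins, and Nes encodes an intermediate filament of progenitor cells. Many neural genes are kept off in other tissues by the repressor REST and its partners, and a minority are also used outside the nervous system. The genes were not all held together by position: they lie on chromosomes 1, 2, 3, 5, 6, 9 and 12. Sema3e, Reln and Gabra4 share chromosome 5, with spans that begin at bases 14025276, 21884454 and 71569734. Cntn5 and Scn11a share chromosome 9, at 9634223 and 119753763. Their transcribed spans were long, with a median of 160.5 kb against 18.0 kb over 20450 protein-coding genes. In 9 of the 10 the span was above that median and in 5 above the 90th percentile, from 9.36 kb for Nes to 1271 kb for Cntn5.

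The start regions of the genes were also unlike one another in sequence. RefSeq windows (GRCm38.p6, 250 bases before to 50 after a gene's start) matched 8 of the 10 symbols, all but Syndig1l and Cdh19. The windows held 0 to 47 CG pairs, against a median of 7 over 32851 promoters. Those of Reln (chr5:22344706-22344955, minus strand), Gpr158 (chr2:21367317-21367566, plus strand), Sema3e (chr5:14025026-14025275, plus strand) and Scn11a (chr9:119825457-119825706, minus strand) are printed because Reln was the most highly counted of the 10 and the other 3 were each high in 1 line and near 0 reads elsewhere. Each is the 250 bases before the start, 5′ to 3′ on the gene's strand, with CG pairs in capitals.
Reln: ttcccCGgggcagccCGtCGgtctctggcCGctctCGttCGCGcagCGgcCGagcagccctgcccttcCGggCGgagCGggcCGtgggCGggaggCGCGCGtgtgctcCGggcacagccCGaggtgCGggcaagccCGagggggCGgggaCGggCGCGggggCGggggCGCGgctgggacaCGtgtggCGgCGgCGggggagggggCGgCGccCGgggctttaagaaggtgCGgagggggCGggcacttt
Gpr158: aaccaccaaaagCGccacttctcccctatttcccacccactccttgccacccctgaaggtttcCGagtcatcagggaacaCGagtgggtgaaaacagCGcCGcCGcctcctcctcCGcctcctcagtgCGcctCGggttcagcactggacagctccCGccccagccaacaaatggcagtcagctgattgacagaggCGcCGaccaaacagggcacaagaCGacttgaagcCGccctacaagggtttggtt
Sema3e: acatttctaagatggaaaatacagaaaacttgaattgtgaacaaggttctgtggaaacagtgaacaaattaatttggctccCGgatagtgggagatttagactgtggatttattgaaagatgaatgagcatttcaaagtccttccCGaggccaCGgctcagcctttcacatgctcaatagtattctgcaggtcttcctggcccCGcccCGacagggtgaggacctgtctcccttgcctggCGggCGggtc
Scn11a: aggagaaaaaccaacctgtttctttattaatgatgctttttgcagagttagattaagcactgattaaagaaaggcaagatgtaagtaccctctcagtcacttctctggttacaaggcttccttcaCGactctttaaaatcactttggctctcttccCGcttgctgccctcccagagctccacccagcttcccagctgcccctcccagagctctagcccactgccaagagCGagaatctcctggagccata

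Reading down the 4 sequences, the capitals thin out from 37 CG pairs before the start of Reln to 14 for Gpr158, 7 for Sema3e and 3 for Scn11a. Over the whole window the Reln region had 47 CG pairs and 80.7% G or C, above 98.6% of promoters in its CG count. The Scn11a window had 3 CG pairs, and 38.0% of all promoters had fewer than 5. Cntn5 had 26, Nes 18 and Gabra4 12. The Cntn3 window in the table had 0, but it starts inside the annotated span of the gene and not at its outer end. The letters CACGTG, an E-box that MYC can bind and the same on both strands, occurred in the windows of Reln and Sema3e and in 7.15% of all promoters. Neither the letters TATAAA (13.6% of promoters), bound by the basal machinery, nor TTCAGCACC (0.371%) or GGACAGCGC (0.405%), from the left and right parts of the REST element, was found on either strand in the windows of these genes. Only exact letters were searched. The Gpr158 sequence holds ttcagcact followed directly by ggacagctc, each a single letter away from the REST letters searched for. Such near matches were not counted. A match of letters is a description of the sequence and not of binding.

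As a group, the 10 genes did not share 1 pattern over the lines. Control libraries already held 4 of them at a mean of 1 CPM or more (Gabra4, Reln, Syndig1l and Nes) and 1 of them, Reln, above 100 CPM. These 4 were thus not silent in the control libraries, though Syndig1l there rested on 16 reads. Each was near 0 or far below the controls in at least 1 line. RNA of other cells was also in the controls: 9 stromal genes summed to 21.2 to 56.2 CPM there, against 1.25 to 33.5 CPM in tumour libraries. The part of such cells in the control levels of these 4 was not tested. The other 6 were below 1 CPM in the controls. By line, VQ-D1 held 4 of the 10 at 1 CPM or more, VQ-D2 7, VQ-D4 8, VQ-D5 5 and t-VK12653 5. Counting only levels of 10 CPM or more, the numbers were 4, 6, 5, 5 and 2 in the same order. The line with the highest mean was VQ-D5 for 3 genes, VQ-D2, VQ-D4 and t-VK12653 for 2 each and VQ-D1 for 1. In bulk RNA, fewer cells with a transcript and less of it per cell cannot be told apart.

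**Figure D1:**
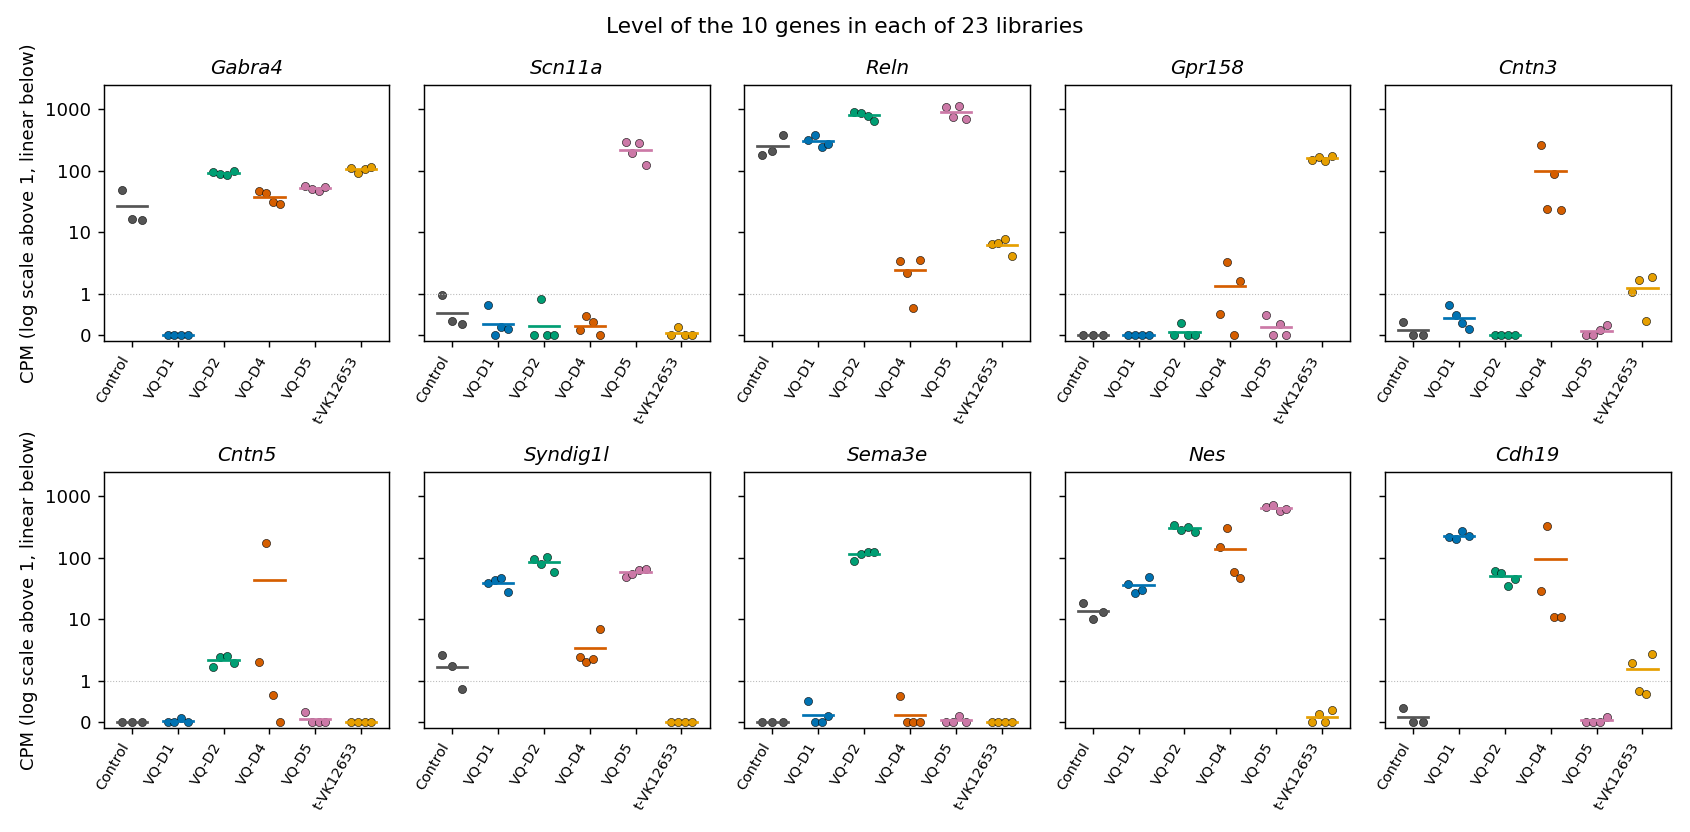
Level of each gene in CPM (log scale above 1, linear below) in the 23 libraries, by group; points are libraries and bars are group means. Scn11a, Gpr158 and Sema3e were each above 80 CPM in all 4 libraries of 1 line and below 4 CPM in every other library, while Reln and Nes covered several orders of magnitude between lines.

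Scn11a, which encodes the sodium channel Nav1.9 of pain-sensing neurons, was a VQ-D5 transcript. Its 4 libraries there had 291.4 CPM and 192.5 CPM in bone marrow and 280.2 CPM and 124.0 CPM in lymph node, from 1218, 840, 2142 and 1065 reads, for a mean of 222.0 ± 78.9 CPM (SD, n = 4). All other groups were low, with 5 reads over the controls, 6 over VQ-D1, 6 over VQ-D2, 5 over VQ-D4 and 1 over t-VK12653. The mean in VQ-D5 was 423.1 times that of the controls, or 736.6 times without control replicate 1, which held 3 of their 5 reads. The mean in VQ-D5 was 3683 times the pooled level of t-VK12653, which is its single read over the summed size of its libraries. That read gives a 95% counting interval of 661.0 to 145470. No library outside VQ-D5 reached 1 CPM.

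Within VQ-D5 the spread of Scn11a followed the recipient numbers in the table names more than the site. The marrow and lymph node libraries with the first number had 291.4 and 280.2 CPM, and those with the second had 192.5 and 124.0 CPM. Reln ran the same way there, at 1085 and 1122 CPM with the first number against 756.5 and 706.6 CPM with the second. Nes, also high in this line, did not: it had 654.2 and 567.0 CPM with the first number against 730.4 and 614.0 CPM with the second. With 2 recipients the difference between them was not tested.

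Gpr158, an orphan receptor that holds RGS7 at the membrane of neurons, was a t-VK12653 transcript. It had 152 and 145.0 CPM in bone marrow and 168.6 and 176.0 CPM in spleen, a mean of 160.4 ± 14.4 CPM (SD, n = 4). VQ-D4 followed at 1.34 ± 1.44 CPM, from 4 reads in marrow, 21 in liver, 0 in spleen and 5 in lymph node. Over the controls and over VQ-D1 no read was counted, so the level in t-VK12653 was at least 526.0-fold higher than in controls and at least 1480-fold higher than in VQ-D1 (3 counts over the group as the floor). The t-VK12653 libraries lay close together and did not overlap with any other group.

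Gabra4, the alpha-4 subunit of GABA-A chloride channels, had the opposite kind of pattern: it was present in 5 of the 6 groups and missing from 1. Control libraries had 48.9, 16.3 and 15.7 CPM (mean 27.0 ± 19.0, SD, n = 3). In t-VK12653 the values were 110.3 and 106.7 CPM in marrow and 93.9 and 116.4 CPM in spleen, and in VQ-D2 95.3 and 89.1 CPM in spleen and 84.8 and 98.4 CPM in lymph node. The means were 106.8 ± 9.50 CPM in t-VK12653, 91.9 ± 6.13 in VQ-D2, 52.1 ± 4.12 in VQ-D5 and 37.5 ± 9.04 in VQ-D4 (SD, n = 4 each). VQ-D1 had 0 reads in all 4 libraries, at least 986-fold below t-VK12653 and below the lowest control library. The controls overlapped with VQ-D4 and VQ-D5 through their highest library, without which the control mean was 16.0 CPM. VQ-D4 also overlapped with VQ-D5, and VQ-D2 with t-VK12653. The order of those 2 leading lines was also a matter of scale, since by the authors' TPM, which are length-scaled, VQ-D2 had 59.4 and t-VK12653 51.2.

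Syndig1l, a relative of the synapse differentiation protein SynDIG1 that binds AMPA receptors, marked 3 of the VQ lines. VQ-D2 had 96.2 and 79.6 CPM in spleen and 103.2 and 57.5 CPM in lymph node, a mean of 84.1 ± 20.3 CPM (SD, n = 4). VQ-D5 averaged 58.0 ± 7.59 CPM and VQ-D1 39.0 ± 7.82 CPM. VQ-D4 stood at 2.39 CPM in marrow, 2.01 in liver, 2.27 in spleen and 7.03 in lymph node, next to controls at 2.59, 1.70 and 0.787 CPM. No read was counted in t-VK12653. Without the lymph node library the VQ-D4 mean fell from 3.42 to 2.22 CPM. The ranges of VQ-D2 and VQ-D5 overlapped, and those of VQ-D5 and VQ-D1 did not.

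Reln encodes reelin, a large secreted glycoprotein that positions migrating neurons through the receptors VLDLR and ApoER2. Control libraries had 184.2, 210.7 and 377.5 CPM (mean 257.5 ± 105, SD, n = 3). VQ-D5 averaged 917.5 ± 216 CPM, VQ-D2 809.0 ± 115 CPM, from 657.8 to 923.8 CPM, and VQ-D1 308.4 ± 61.7 CPM, from 245.8 to 387.5 CPM (SD, n = 4 each). In the remaining lines the values were 6.44, 6.76, 7.79 and 4.11 CPM in t-VK12653 (mean 6.27 ± 1.56) and 3.40, 2.16, 0.648 and 3.51 CPM in VQ-D4 (mean 2.43 ± 1.34). Reln thus split the lines both ways around its control level. VQ-D1 overlapped with the controls, VQ-D2 with VQ-D5, and neither t-VK12653 nor VQ-D4 with any control library.

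Sema3e, a secreted semaphorin that steers axons and vessels through plexin D1, was a VQ-D2 transcript. It had 89.1 and 115.6 CPM in spleen and 125.3 and 121.9 CPM in lymph node, a mean of 113.0 ± 16.4 CPM (SD, n = 4). No read was counted over the controls or over t-VK12653, which puts VQ-D2 at least 370.5-fold above the former. VQ-D1 held 3 reads, VQ-D5 1 read, and VQ-D4 5 reads that all fell in the marrow library.

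Nes encodes nestin, the filament protein of neural progenitors and of some cells of the marrow niche. Controls had 18.1, 10.2 and 12.9 CPM (mean 13.7 ± 4.03, SD, n = 3). All 4 libraries of VQ-D5 lay between 567.0 and 730.4 CPM, with a mean of 641.4 ± 69.2 CPM (SD, n = 4), 46.7 times the control mean. VQ-D2 had 345.9 and 278.5 CPM in spleen and 314.7 and 264.5 CPM in lymph node (mean 300.9 ± 36.7). VQ-D1 averaged 35.6 ± 10.1 CPM, and t-VK12653 had 2 reads in all. Each VQ library was above the highest control library, and each t-VK12653 library was below the lowest. VQ-D4, at 46.0 to 303.6 CPM, overlapped with VQ-D2 and with VQ-D1.

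Cdh19, a cadherin of Schwann cells and their precursors, was highest in VQ-D1. Its 2 marrow libraries had 217.3 and 267.8 CPM and its 2 spleen libraries 199.2 and 223.8 CPM, a mean of 227.0 ± 29.1 CPM (SD, n = 4). VQ-D2 averaged 49.4 CPM, from 34.3 to 60.9 CPM, and t-VK12653 1.52 ± 0.992 CPM. The controls and VQ-D5 had 1 read each. VQ-D1 overlapped with VQ-D4 through a single VQ-D4 library.

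Cntn3 and Cntn5 encode contactins, immunoglobulin-like proteins anchored to the membrane of axons, and both had their highest mean in VQ-D4. Cntn3 had 262.0 CPM in the marrow library, 23.6 in liver, 87.8 in spleen and 22.99 in lymph node, a mean of 99.1 ± 113 CPM (SD, n = 4). Outside VQ-D4 its highest mean was 1.25 ± 0.707 CPM in t-VK12653, and VQ-D2 had 0 reads. All 4 VQ-D4 libraries were above every other library. Cntn5 had 1112 reads in the liver library of VQ-D4 (171.8 CPM), 16 in marrow (2.01 CPM), 2 in spleen (0.648 CPM) and 0 in lymph node. Its only other group above 1 CPM was VQ-D2, at 2.14 ± 0.423 CPM (SD, n = 4). Cntn5 was therefore high in 1 library, and the mean of 43.6 ± 85.5 CPM in VQ-D4 describes no library of that line.

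VQ-D4 is the line whose libraries differed most, and its liver library stood apart. Cdh19 had 327.0 CPM in liver, against 29.1 in marrow, 11.01 in spleen and 10.9 in lymph node. Nes had 303.6 CPM in liver against 149.8, 59.0 and 46.0 CPM in the same order. Gabra4, by contrast, ran only from 28.4 to 47.3 CPM over the 4 libraries. Without the liver library the VQ-D4 mean of Cntn5 fell from 43.6 to 0.887 ± 1.03 CPM (SD, n = 3), below VQ-D2, that of Cdh19 from 94.5 to 17.0 ± 10.5 CPM, that of Nes from 139.6 to 84.9 ± 56.6 CPM and that of Gpr158 from 1.34 to 0.700 ± 0.816 CPM. That of Cntn3 went from 99.1 to 124.2 ± 124 CPM, and without the marrow library it was 44.8 CPM. The liver library is the only one of the line with its own recipient number, so liver and recipient cannot be told apart. The 3 libraries that share a recipient number also differed among themselves, with Cntn3 at 262.0, 87.8 and 22.99 CPM.

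**Figure D2:**
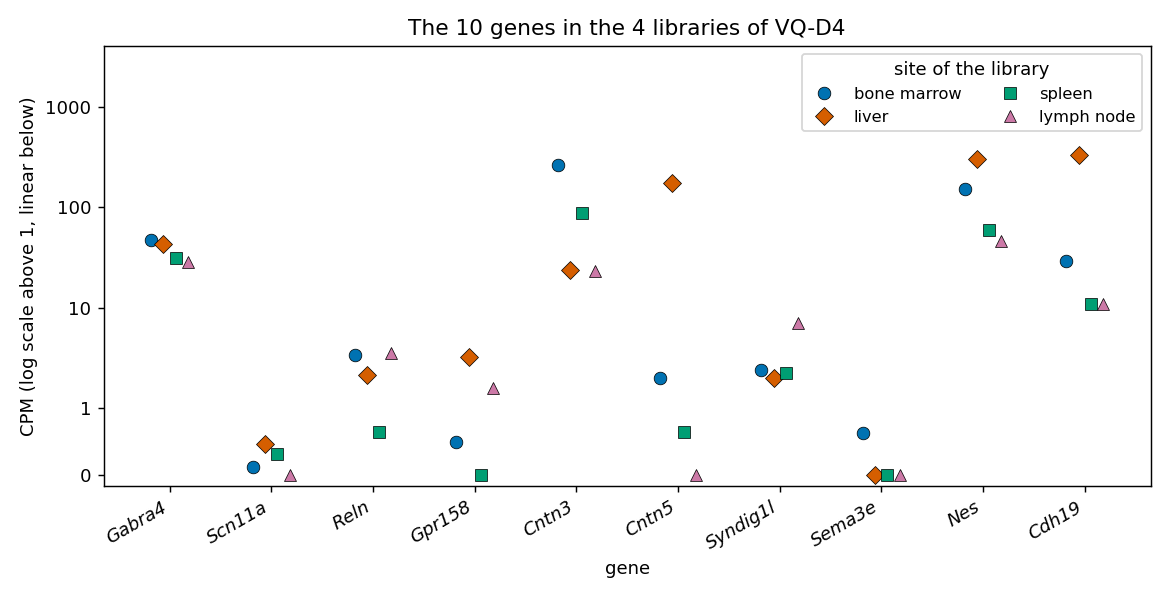
Level of each gene in CPM (log scale above 1, linear below) in the 4 VQ-D4 libraries, 1 point per library, by site. The liver library had the highest Cntn5 (171.8), Cdh19 (327.0) and Nes (303.6), while the marrow library had the highest Cntn3 (262.0).

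Hepatocyte genes were higher in that library, and of the blood endothelial genes mainly Cdh5 was. The summed level of 7 hepatocyte genes was 41.4 CPM in the liver library, with 6 of the 7 detected and albumin at 27.8 CPM, and from 0 to 0.503 CPM in the other 3. Of 7 blood endothelial genes, the summed level was 745.6 CPM in the liver library and 14.3 to 24.0 CPM in the others. Nearly all of it was Cdh5, VE-cadherin, at 732.9 CPM against 0.755, 0.324 and 0 CPM elsewhere in the line. In the liver library the endothelial genes Kdr stood at 0.155 CPM and Tek, Emcn and Flt1 at 0. Pecam1 was lowest there, at 9.43 CPM against 18.7 in marrow, 12.3 in spleen and 19.8 in lymph node. Egfl7, at 3.09 CPM, was within the range of the other libraries of the line. The 5 hepatic stellate genes summed to 2.39 to 4.47 CPM over the 4 VQ-D4 libraries, with Hgf and Ngfr at 0 in all. The part of any liver or vessel cells in the levels of Cntn5, Cdh19 and Nes was not tested.

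Markers of neurons and glia were measured because the 10 genes are neural. Summed over 10 neuronal genes, control libraries had 2.62 to 6.13 CPM, VQ-D1 8.77 to 17.7, VQ-D2 2.98 to 10.1, VQ-D4 4.21 to 9.26, VQ-D5 0.458 to 3.11 and t-VK12653 46.9 to 101.6 CPM. In t-VK12653 the sum came mostly from Syt1, a synaptic vesicle protein, at 46.7 CPM and Map2, a dendritic microtubule protein, at 22.7 CPM. Of the 10 neuronal genes 7 had reads in that line. Syn1 averaged 1.11 CPM, Tubb3 0.727, Gap43 0.154, Rbfox3 0.115 and Elavl4 0.0469 CPM there, and Snap25, Stmn2 and Nefl had 0 reads. Over 10 Schwann and glial genes the sum was 30.7 to 129.6 CPM per library over all groups and came mostly from Erbb3 and Mbp. Foxd3 had 0 reads in every library and Sox10, the glial lineage factor, averaged at most 0.870 CPM in any group. In VQ-D1, where Cdh19 was highest, Sox10 stood at 0.238 CPM and S100b, a glial calcium-binding protein, at 0.413 CPM.

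Compared per length, by the authors' TPM, the most abundant of the 10 in its best line was Nes, at 240.5 ± 22.5 TPM in VQ-D5. Reln followed at 183.7 ± 22.4 TPM in VQ-D2 and Cdh19 at 182.3 ± 25.5 TPM in VQ-D1, so that the long Reln transcript no longer stood first. Syndig1l reached 89.4 TPM in VQ-D2, Scn11a 87.5 in VQ-D5, Gabra4 59.4 in VQ-D2, Gpr158 44.2 in t-VK12653 and Sema3e 43.9 in VQ-D2. Cntn3 averaged 39.2 TPM and Cntn5 22.4 TPM in VQ-D4, the latter from the liver library at 88.3 TPM.

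Whether the levels depended on the organ in which a line grew was tested within lines, which the choice of genes did not use. A gene was read in a line where its mean was at least 1 CPM, which gave 21 pairs of a gene and a line over 4 comparisons of 2 libraries against 2. In edgeR's quasi-likelihood test with Benjamini-Hochberg adjustment over 12867 genes, 0 of the 21 passed an adjusted p of 0.05, and 1 had an unadjusted p under 0.05. DESeq2 also passed 0. The background was low as well: 0% of all tested genes passed for spleen against marrow in VQ-D1, 0.00777% for the same sites in t-VK12653, 0.0466% for lymph node against spleen in VQ-D2 and 0.00777% for lymph node against marrow in VQ-D5. The differences were small in size, with 19 of 21 below 0.5 on the log2 scale in either direction.

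The single pair with an unadjusted p under 0.05 was Cdh19 in VQ-D2. It had 60.9 and 56.8 CPM in spleen and 34.3 and 45.7 CPM in lymph node, a log2 difference of −0.56 (SE 0.231, adjusted p = 1 by edgeR's quasi-likelihood test). The largest difference was that of Cntn3 in t-VK12653, at 1.69 and 1.92 CPM in spleen and 1.07 and 0.339 CPM in marrow, a log2 difference of 1.17 (SE 0.636, adjusted p = 0.894 by edgeR's quasi-likelihood test). That one rests on 22 reads. Among abundant pairs, Scn11a in VQ-D5 differed by −0.26 (SE 0.375) and Gpr158 in t-VK12653 by 0.21 (SE 0.247) on the log2 scale, and Reln in VQ-D5 by −0.01 (SE 0.322). With recipient numbers as a replicate block the count of genes called rose to 89, 176, 170 and 46 in the order of the comparisons above, and still 0 of the 21 pairs passed. The lowest adjusted p in that fit was 0.0735, for Reln in VQ-D2 (log2 difference −0.31).

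**Figure D3:**
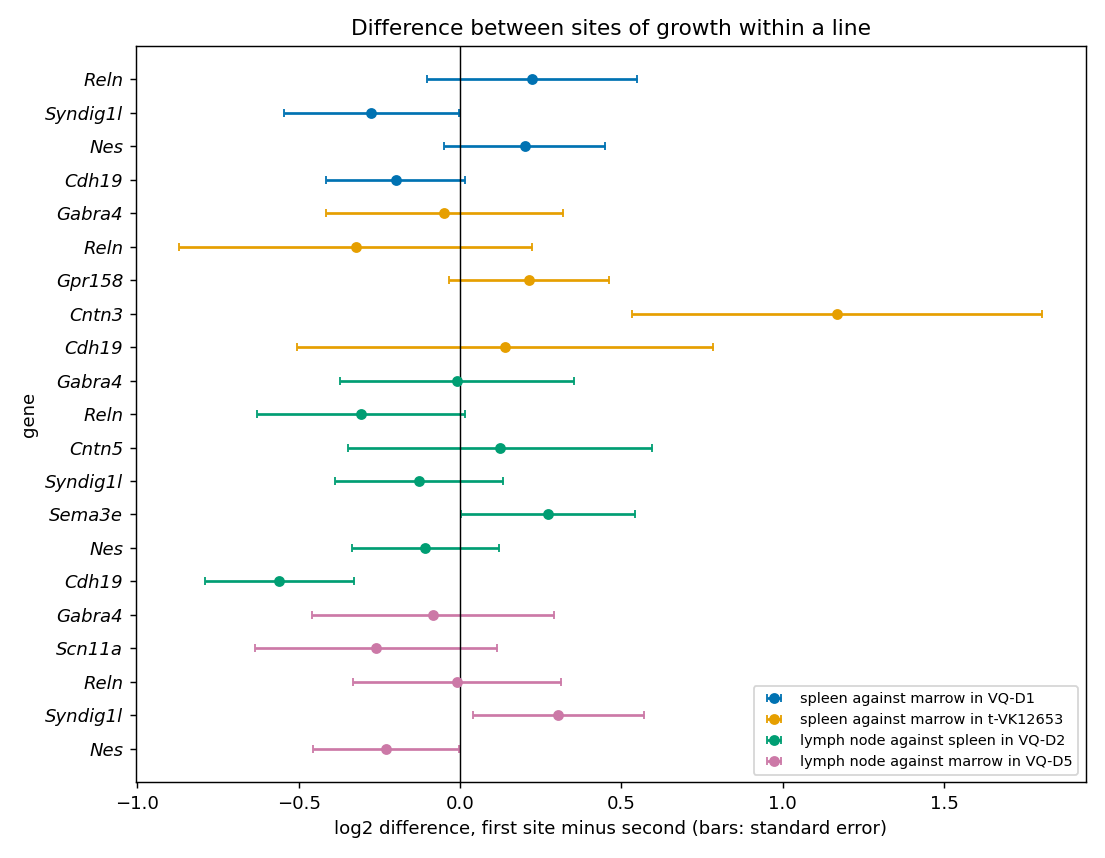
Log2 difference between sites of growth for each gene read in a line, with its standard error, from the fit of all 23 libraries; colours are the 4 comparisons. The 2 points beyond 0.5 in either direction are Cntn3 in t-VK12653 (1.17) and Cdh19 in VQ-D2 (−0.56), and neither passed the test after adjustment.

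Spleen and marrow were compared in both VQ-D1 and t-VK12653, so the difference between these effects could be tested for genes read in both lines, Reln and Cdh19. The effect in t-VK12653 minus that in VQ-D1 was −0.55 (SE 0.636) for Reln and 0.34 (SE 0.684) for Cdh19 on the log2 scale, each with an adjusted p of 1 in edgeR's quasi-likelihood test. Of all genes, 0% passed that test. In the 21 pairs tested, Cntn3 was read only in t-VK12653 and Cntn5 only in VQ-D2, at means of 1.25 and 2.14 CPM. A difference of the order of the standard errors could not be detected with 2 libraries against 2. VQ-D4, with 1 library per site, has values only.

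Genes next to the 10 were read to see whether a chromosome neighbourhood moved with the member. The 3 nearest genes on each side gave 60 neighbours, of which 28 had enough counts to test. The contrast was the line with the member's highest mean against the mean of the other 4 lines, on the log scale, with site as a term. The site term takes up the only liver library, so VQ-D4 enters these contrasts through its other sites. By edgeR's quasi-likelihood test 12 neighbours were higher (42.9% of those tested) and 3 lower (10.7%). Neighbours were taken by order and not by distance, so not all were close to the member. Those called lay from 25.8 kb (Vrtn) to 7321 kb (Tsn) away, with Sema3a at 421.8 kb and Jrkl at 2338 kb. Among all genes, the share higher was 31.4% in VQ-D5, 31.6% in t-VK12653, 27.1% in VQ-D4, 30.3% in VQ-D2 and 25.9% in VQ-D1, and the share lower was 26.6%, 29.6%, 23.1%, 24.4% and 21.2% in the same order. Of the 12, 10 were higher by less than 2 on the log2 scale.

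Around Scn11a in VQ-D5, Gorasp1, a Golgi stacking protein, was higher by 0.93 (SE 0.114) at 39.4 ± 4.89 CPM, while the neighbouring sodium channel gene Scn10a averaged 0.353 CPM there. Around Reln, Psmc2, a proteasome ATPase, was higher by 1.09 (SE 0.0757), Dnajc2, a ribosome-bound chaperone, by 1.02 (SE 0.0856) and Orc5, of the origin recognition complex, by 0.70 (SE 0.177). Around Nes, Isg20l2, a nucleolar exonuclease, was higher by 1.37 (SE 0.0998) and Gpatch4 by 1.04 (SE 0.0886), whereas Bcan, brevican of the brain matrix and the nearest gene after Nes, averaged 0.998 CPM. The 6 neighbours called higher here were at 15.2 CPM or more in controls, where Scn10a and Bcan had 0 reads. VQ-D2 was the next highest line for all 6. It had Gpatch4 at 155.5 CPM against 176.7 in VQ-D5, Isg20l2 at 94.4 against 135.6 and Dnajc2 at 111.5 against 137.6. Psmc2 was at 93.1 CPM against 117.4, Orc5 at 18.8 against 19.3 and Gorasp1 at 29.8 against 39.4. Reln and Nes were also second highest in VQ-D2, while Scn11a had 6 reads there.

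Around Gabra4 in t-VK12653, the genes of the same GABA-A receptor cluster were silent or nearly so. Gabrb1, whose annotated span overlaps the start of Gabra4 by less than 1 kb, averaged 0.581 CPM, and Gabra2 and Gabrg1 had 0 reads in that line. Atp10d, a phospholipid flippase farther out, was lower (log2 difference −4.88, SE 0.665) at 0.132 CPM, and Commd8 was lower (−0.74, SE 0.174) at 10.1 CPM. Around Gpr158, Thnsl1 was higher by 1.57 (SE 0.329) at 6.45 ± 1.92 CPM, but it stood at 6.80 CPM in VQ-D1, where Gpr158 had 0 reads. Gm13375 was higher by 1.09 (SE 0.186) at 15.2 CPM, with 13.3 CPM in VQ-D4 and 13.1 CPM in VQ-D1, while Myo3a and Gad2, the latter a GABA-synthesising enzyme, had 0 reads.

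Around Syndig1l in VQ-D2, Abcd4, a lysosomal transporter, was higher by 1.55 (SE 0.171) and Vrtn by 4.53 (SE 0.682), though Vrtn stood at 2.87 CPM in VQ-D2 and 3.997 CPM in VQ-D5. Around Sema3e, Sema3a, a guidance protein of the same class, was higher by 2.87 (SE 0.419) as a contrast of mean logs, at 58.4 CPM in VQ-D2, but its highest level was 381.1 CPM in t-VK12653, where Sema3e had 0 reads. Of the neighbours of Cntn3 only Ppp4r2 could be tested and was not called (0.17, SE 0.166), and around Cntn5 only Jrkl was tested and was lower in VQ-D4 (−0.93, SE 0.283). The VQ-D4 side of that contrast rests on marrow, spleen and lymph node, where Cntn5 had 16, 2 and 0 reads. The contrast therefore cannot show whether Jrkl moved with Cntn5. Without the lymph node library of VQ-D4 the adjusted p of Jrkl was 0.0928 in edgeR's quasi-likelihood test. Around Cdh19, Tsn, an RNA-binding protein, averaged 54.4 CPM in VQ-D1 and 54.1 CPM in VQ-D5, where Cdh19 had 1 read. In the contrast Tsn was higher in VQ-D1 by 0.22 (SE 0.0833, adjusted p = 0.0364 by edgeR's quasi-likelihood test), the smallest of the 12 differences. Leaving out replicate 2 or 3 of VQ-D1, replicate 3 of VQ-D4 or replicate 2 of VQ-D5 raised that adjusted p above 0.05, to 0.158 at most. For Cox7b2 next to Gabra4 and Dsel next to Cdh19 no difference could be estimated because lines had 0 reads: Dsel was at 34.2 CPM in controls, 38.7 in VQ-D2 and 16.4 in VQ-D5, and at 0 in VQ-D1 and t-VK12653.

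**Figure D4:**
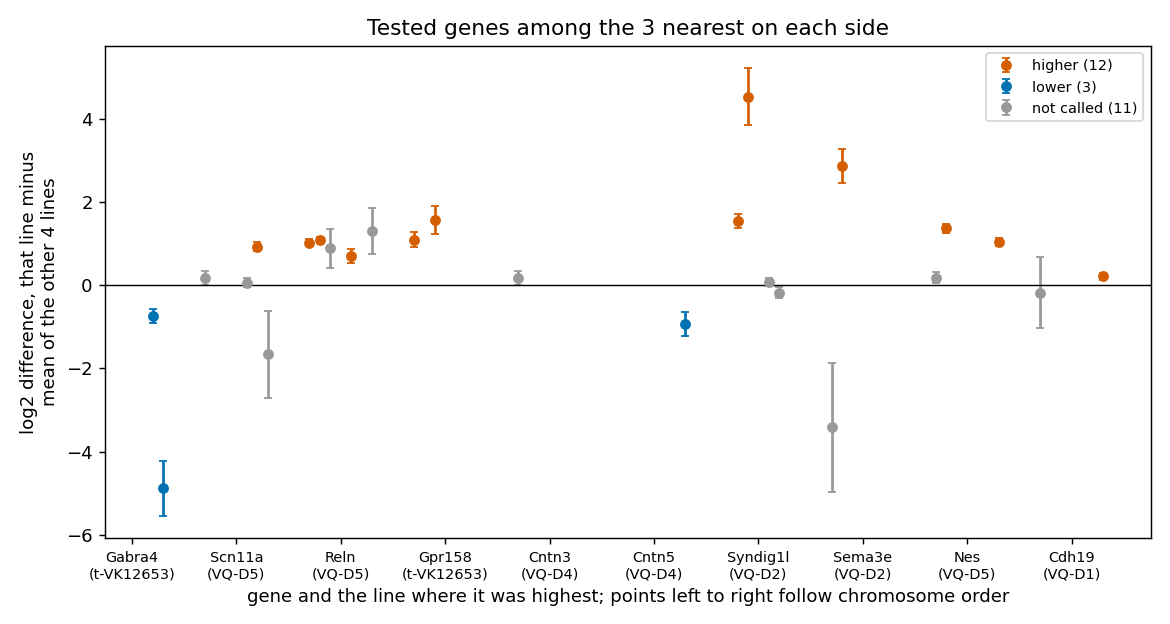
Log2 difference of 26 tested neighbours in the line where the member was highest, minus the mean of the other 4 lines, with standard errors; points run in chromosome order beside each member, and 2 genes with no estimate are left out. Most called neighbours lie between −1 and 2, the exceptions being Atp10d (−4.88), Vrtn (4.53) and Sema3a (2.87).

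Relatives and partners of the 10 were compared with the controls in 10 lists holding 161 genes, of which 76 were tested. All 5 comparisons share the 3 control libraries. The only liver library is fitted by its own site term, so calls in VQ-D4 rest on its marrow, spleen and lymph node libraries. Means given for VQ-D4 include the liver library. In VQ-D1 19 genes were higher (25.0%) and 26 lower (34.2%), against 29.7% and 29.6% of all genes. In VQ-D2 24 were higher (31.6%) and 23 lower (30.3%), against 29.6% and 27.8%. In VQ-D4 17 were higher (22.4%) and 28 lower (36.8%), against 27.5% and 26.8%. In VQ-D5 18 were higher (23.7%) and 29 lower (38.2%), against 31.2% and 32.5%. In t-VK12653 19 were higher (25.0%) and 31 lower (40.8%), against 28.8% and 28.1%. The share that rose was below that of all genes in 4 of the 5 lines and above it in VQ-D2, and the share that fell was above that of all genes in each line. These counts describe the lists and are no test of them. The median over all tested genes was between −0.04 and 0.02 on the log2 scale in each comparison. Control libraries held neutrophil RNA, with 8 granule genes summing to 3025 to 8201 CPM against 3.10 to 1124 CPM in tumour libraries, and 5 B cell genes at 117.2 to 302.0 CPM against at most 4.53 CPM. The part of these cells in the genes lower in tumours was not tested.

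**Figure D5:**
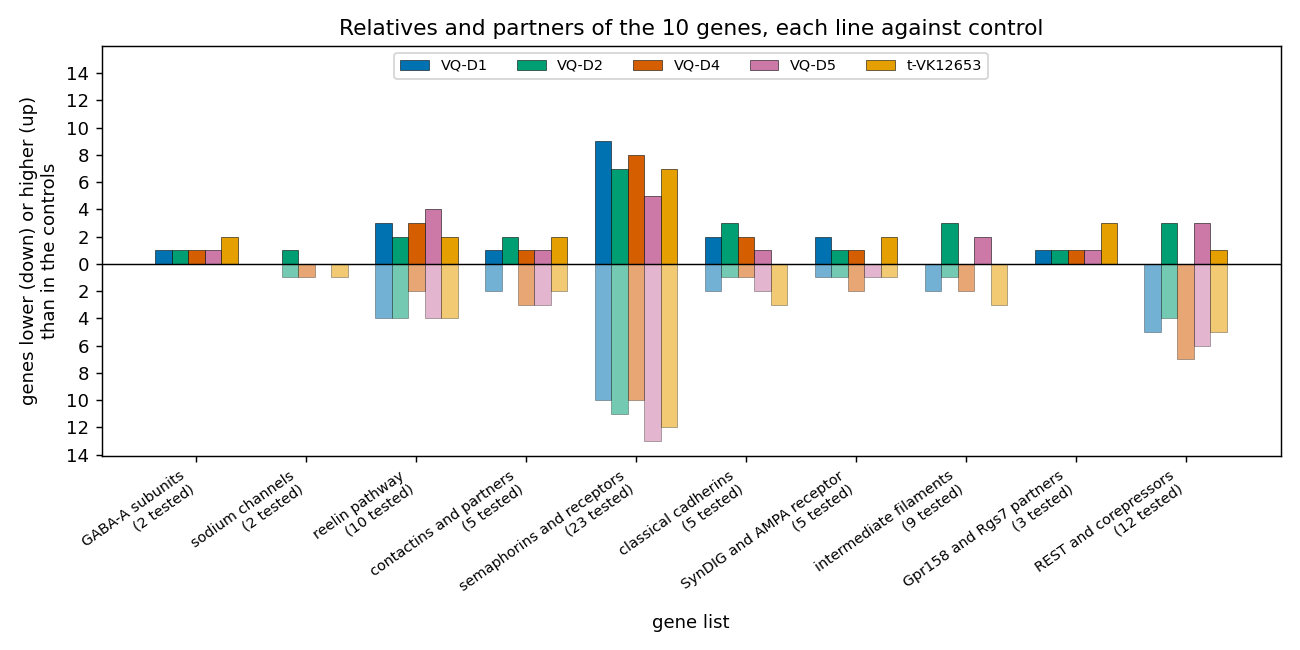
Number of genes higher (up) or lower (down, paler) than in the 3 controls by edgeR's quasi-likelihood test, for each list and line; the number of genes tested is under each list. Semaphorins and their receptors were the largest list, with 5 to 9 genes higher and 10 to 13 lower.

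Counts within a list are small, and leaving out 1 library changes many of them by 1 or 2 genes. Of 18 other GABA-A subunits 2 could be tested. Gabrd, the delta subunit that pairs with alpha-4 in extrasynaptic channels, had 0 reads in controls and was called higher in all 5 lines, at 0.741 to 5.26 CPM. Gabrr1, a rho subunit, was called in t-VK12653, at 14.0 ± 7.79 CPM, with a log2 difference of 6.13 (SE 0.985). Of 13 other sodium channel genes 2 were tested. Scn4a, the muscle channel, was higher in VQ-D2 at 5.89 ± 0.411 CPM, and Scn2b was lower in VQ-D2, VQ-D4 and t-VK12653. In VQ-D5, where Scn11a was high, neither was called.

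The reelin pathway was expressed more widely, with 10 of 13 genes tested. Between 2 and 4 rose and between 2 and 4 fell in each line, with list medians from −0.29 to −0.09. In VQ-D5, where Reln was highest, Lrp8, which encodes the reelin receptor ApoER2, was at 56.5 ± 7.14 CPM against 12.3 CPM in controls, a log2 difference of 1.99 (SE 0.311). Fyn, the kinase that phosphorylates the reelin adaptor, was at 616.3 ± 51.9 CPM there against 67.0 CPM, a log2 difference of 3.22 (SE 0.488). In t-VK12653, where Reln was low, Fyn was at 0.235 CPM (−7.59, SE 0.926) and Lrp8 at 2.26 CPM (−2.32, SE 0.408). The other lines did not follow Reln in this way. VQ-D2, which overlapped with VQ-D5 in Reln, had Fyn at 148.9 CPM (1.28, SE 0.566) and Lrp8 at 20.5 CPM (0.64, SE 0.362), neither called. In VQ-D1, with Reln in the control range, Fyn fell to 13.1 CPM (−2.39, SE 0.535). VQ-D4 had little Reln while Fyn at 68.1 CPM and Lrp8 at 12.4 CPM were not called there. Dab1, the adaptor itself, and the receptor gene Vldlr did not pass the filter on low counts. Src, a related kinase, rose in all 5 lines, from 9.93 to 36.8 CPM against 1.82 CPM. Pafah1b1, which encodes the lissencephaly protein LIS1, fell in all 5 by 0.35 to 0.82 on the log2 scale. Itgb1, an integrin subunit that can bind reelin, rose in the 4 VQ lines, most in VQ-D2, to 257.7 ± 20.2 CPM from 126.9 CPM. The adaptor gene Crk fell in those 4, and Rapgef1, the exchange factor that binds it, fell in VQ-D2 and t-VK12653. Lrp8, Src, Dab1 and Vldlr were named after their values were seen.

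Contactin relatives were mostly low, with 5 of 19 tested. Nrcam, a neuronal adhesion protein, rose in all 5 lines to between 1.19 and 7.90 CPM from 0.175 CPM. Cntn4 rose in VQ-D2, to 4.88 ± 1.35 CPM from 0.822 CPM, and fell in VQ-D1, to 0 reads. Cntnap1, a contactin partner of myelinated axons, rose in t-VK12653 to 65.1 ± 13.1 CPM (1.51, SE 0.332) and fell in VQ-D4 (−1.33, SE 0.388) and VQ-D5 (−1.74, SE 0.383). Ncam1, the neural cell adhesion molecule found on many myelomas in patients, fell in t-VK12653, VQ-D5, VQ-D4 and VQ-D1, to 0.208 to 1.33 CPM from 22.3 CPM. In VQ-D2 it was as low, at 0.401 CPM, without a call (−2.99, SE 1.51). L1cam, a neurite adhesion protein, fell in VQ-D4, VQ-D5 and t-VK12653, to 2.71 to 3.04 CPM from 11.9 CPM. The list medians ran from −1.74 to 0.31.

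Semaphorins, plexins and neuropilins formed the largest list, with 23 of 30 tested. Plxnd1, the receptor of Sema3e, was lower in VQ-D2, the line with Sema3e, at 7.04 ± 2.73 CPM against 29.8 CPM in controls (−1.74, SE 0.364), and also in VQ-D4 and VQ-D5. Plxnd1, Nrp1 and Nrp2 were named after their values were seen, as receptors of class 3 semaphorins. The co-receptor Nrp1 fell in all 5 lines, from 49.3 CPM to at most 0.501 CPM, and Nrp2 fell in all 5 as well. Plxnb2 rose in all 5 lines, by 1.77 to 2.90, to between 209.0 and 487.5 CPM. Plxna4 rose in VQ-D1 to 270.8 ± 40.2 CPM and in VQ-D4 to 252.1 ± 15.7 CPM from 13.2 CPM, and fell below 1 CPM in VQ-D2, VQ-D5 and t-VK12653. Plxna1 rose and fell in the same lines as Plxna4, with 246.4 CPM in VQ-D4. Sema3a rose in the 4 lines other than VQ-D4, most in t-VK12653 (log2 difference 9.63, SE 0.785). Sema4d, a semaphorin of lymphocytes, fell in the 4 lines other than VQ-D2, from 184.6 CPM to between 54.5 and 140.1 CPM. The medians of the list were −0.29 to −1.74, below those of all genes, and 5 to 9 genes rose against 10 to 13 that fell.

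Among 17 classical cadherins, 5 were tested. Cdh10 rose from 0 reads in controls to 16.0 ± 4.14 CPM in VQ-D1, where Cdh19 was highest, and was also called in VQ-D2, VQ-D4 and VQ-D5 at 1.06 to 2.45 CPM. Cdh1, E-cadherin, rose in VQ-D1, VQ-D2 and VQ-D4, to 29.1, 32.3 and 47.5 CPM from 2.92 CPM, which are the lines with Cdh19 above 10 CPM, and fell in t-VK12653. Cdh5, high in the liver library of VQ-D4, was called lower in that line (−3.52, SE 0.862). That call rests on the marrow, spleen and lymph node libraries, at 0.755, 0.324 and 0 CPM. The site term takes up the liver library. Cdh2, N-cadherin, fell in t-VK12653, VQ-D5, VQ-D2 and VQ-D1 from 22.2 CPM, but was at 32.8 ± 32.2 CPM without a call in VQ-D4. Cdh15, the muscle cadherin, rose in VQ-D2, to 7.14 ± 3.67 CPM. The list medians ran from −2.48 to 3.65.

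Of 17 AMPA receptor and SynDIG genes 5 were tested, and medians ran from −0.42 to 1.17. Dlg4, the postsynaptic scaffold PSD-95, rose in VQ-D1, VQ-D4 and t-VK12653 to 20.01, 23.26 and 24.56 CPM from 1.98 CPM, and was not called in VQ-D2 and VQ-D5, which had the most Syndig1l. Prrt2, a presynaptic protein, rose in t-VK12653 to 13.5 ± 4.49 CPM. Cacng8, an AMPA receptor auxiliary subunit, rose in VQ-D1 and VQ-D2 to 2.98 and 3.06 CPM and fell in VQ-D4. Gria3, an AMPA receptor subunit, fell in all 5 lines from 5.50 CPM. Of the 8 partners of Gpr158 and RGS7, 3 were tested and all 3 rose in t-VK12653, the line with Gpr158. Rgs9 rose to 30.1 ± 13.2 CPM, Gpr179 to 12.6 ± 5.06 CPM and Gnb5 to 6.14 ± 1.82 CPM. In that line 28.8% of all genes were called higher, and 3 tested genes are too few to read as a set. Rgs9 also rose in the other 4 lines, and Gpr179 and Gnb5 were not called there. The medians of that list were −0.05 to 2.78.

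Intermediate filament genes did not follow Nes as a class. Of 14, 9 were tested and list medians ran from −0.62 to 0.46. Vim, vimentin, which pairs with nestin in progenitors, fell in VQ-D1, VQ-D4 and t-VK12653 and was at 91.1 ± 54.9 CPM in VQ-D5 against 156.0 CPM in controls without a call. The lamin genes Lmnb1 and Lmna rose in VQ-D5, to 327.8 ± 51.6 and 107.8 ± 16.1 CPM, and Lmnb1 fell in t-VK12653, where Nes had 2 reads. Lmnb2 rose in VQ-D2, to 49.2 ± 8.97 CPM from 20.9 CPM, and fell in VQ-D4, and the lens filament gene Bfsp2 fell in VQ-D2.

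REST and its corepressors were all tested, 12 of 12. In VQ-D1 0 rose and 5 fell, in VQ-D2 3 and 4, in VQ-D4 0 and 7, in VQ-D5 3 and 6, and in t-VK12653 1 and 5, with list medians of −0.54 to −0.27. Rest itself was at 92.3 CPM in controls and fell to 39.2 ± 3.46 CPM in VQ-D1 (−1.22, SE 0.141), 59.1 ± 12.8 CPM in VQ-D4 (−0.72, SE 0.152) and 51.5 ± 5.70 CPM in VQ-D5 (−0.83, SE 0.147). It was not called in VQ-D2, at 85.8 ± 7.05 CPM (−0.08, SE 0.158), or in t-VK12653, at 73.0 ± 5.49 CPM (−0.32, SE 0.142). Ctbp1, a corepressor, fell in all 5 lines by 0.28 to 0.82. Hdac2, a histone deacetylase, was nearly lost in VQ-D1, at 0.630 ± 1.06 CPM against 43.9 CPM (−6.60, SE 0.399), rose in VQ-D2 and VQ-D5, and fell in t-VK12653. Kdm1a, a histone demethylase of the REST complex, rose in VQ-D2 and VQ-D5, to 106.3 and 120.4 CPM from 71.8 CPM. Sin3a fell in the 4 lines other than VQ-D1, and Ehmt2, a histone methyltransferase, fell in VQ-D2, VQ-D4 and VQ-D5. Rest was named after its values were seen, because the list carries its name.

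The genes whose levels ran most like those of a member over the 23 libraries were found by Pearson's r on log2 CPM. The libraries form 6 groups with 3 or 4 members each and share depth and line, so r is a description of group patterns. Sema3e was closest to Adad2 (r = 0.992), Mlc1 (0.991) and Gm6880 (0.990), which were near 0 outside VQ-D2. Scn11a was closest to Tspan7 (0.983), 1810011O10Rik (0.982) and Dgkk (0.980), which averaged 36.4 to 76.9 CPM in VQ-D5 and below 1 CPM in each other group. Gpr158 was closest to 4933425L06Rik (0.972), Lrp1b (0.969), a large lipoprotein receptor at 148.7 CPM in t-VK12653, and Dpysl5 (0.963), a growth cone protein.

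Genes with broader patterns had partners of other kinds. Gabra4 ran with Pdcd5 (0.977), Tmem18 (0.963) and Lphn2 (0.961), of which the first 2 were below 0.1 CPM and Lphn2 at 2.20 CPM in VQ-D1. Reln ran with Evc2 (0.971), Atp10a (0.965) and Cnot6 (0.945), the first 2 also low in VQ-D4 and t-VK12653. Nes ran with Eva1b (0.968), Erdr1 (0.958) and Ppif (0.956), and Syndig1l with Nup107 (0.966), Supt16 (0.960) and Sfmbt2 (0.956). Cntn3 ran with Trap1a (0.971), a tumour antigen at 383.6 CPM in VQ-D4, Atp2b2 (0.935) and Chit1 (0.933). Cdh19 ran with Erich3 (0.922), Tmem200a (0.921) and Kdf1 (0.919). Cntn5 had the weakest likeness, to Map1b (0.806), Alb (0.786) and Nhlrc2 (0.762), and Alb is the albumin gene of the hepatocyte list. Between members, r ran from −0.819 for Cntn3 and Reln to 0.83 for Nes and Syndig1l.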

How the data were processed

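RNA from 23 mouse libraries (3 control, 20 tumour) was made with the RNeasy Micro Kit and a stranded total RNA kit for small inputs (SMARTer Pico v1), per the labels' protocols. The deposited tables hold whole-number read counts per gene and the TPM that the authors computed per gene. The submitters' processing notes list featureCounts, STAR and DESeq2 with mm10 and GRCm38 as builds. Settings, annotation and strand handling were not given in the sources used, so reads of a gene and an antisense partner cannot be told apart.

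From the deposited counts, CPM were computed with TMM factors in edgeR 4.0.16 (R 4.3.3, limma 3.58.1). Genes were kept by filterByExpr (count minimum 10, total minimum 15), which left 12867 of 24063 genes, all 10 described genes among them. edgeR's robust quasi-likelihood F-test with Benjamini-Hochberg adjustment over those genes and a threshold of 0.05 gave all calls. Sites were compared in a fit with 1 mean per line and site. Neighbours and gene lists were compared in a fit with terms for group and site. In that fit the liver term takes up the only liver library, so VQ-D4 estimates rest on its other libraries. DESeq2 1.42.0 was an alternative. The scripts were tested on simulated counts.

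Where a group had 0 reads, a fold is a lower bound against 3 counts over the group. Intervals are exact Poisson, 95%, and like the floors cover counting error only. Likeness was Pearson's r on log2 CPM (prior count 2), with the top 3 genes named per member. A gene was read for site in lines with a mean of at least 1 CPM. Genes named in the text are the 10, the neighbours that passed the test, up to 5 genes per list with the highest mean in any line among those called, genes of the marker lists, and others only where stated or given as not called. The 10 genes and all lists were chosen with earlier results of these data known. Libraries of a line share 1 donor, so p-values measure the spread between libraries. Correlations of deviations between same-numbered libraries ran from −0.219 to 0.147, so label numbers were not treated as pairs; libraries that share a recipient number in the table names correlated at 0.0818 to 0.313 by line, and that block was an alternative only. Other alternatives were RLE scaling, no filter, other models, fewer sites, other units and leaving out each library. A few genes of the lists and neighbourhoods are not reported here.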

Additional observations from a re-analysis of the deposited data

Results flagged for a closer look

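In groups of 4 libraries, a value was singled out where the gap from the highest or lowest library to the next, divided by the range, was above Dixon's 95% critical value for 4 samples. Of 29 groups of a gene and a line that could be read, 3 were, all in VQ-D4. The genes were chosen by their levels in the lines, and the 4 libraries of VQ-D4 came from different sites. The count is therefore a description and is not set against a chance rate. Cntn5 in VQ-D4 had a ratio of 0.988, from 171.8 CPM in the liver library against 2.01 CPM or less in the others. It could be read in this line only through that library, as its mean without it was 0.887 CPM. Cdh19 in VQ-D4 had a ratio of 0.942, from 327.0 CPM in the same liver library. Syndig1l in VQ-D4 had a ratio of 0.924, from the lymph node library, at 7.03 CPM against 2.01 to 2.39 CPM. With 1 library per site in VQ-D4, site and library cannot be told apart.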

How the results depend on the processing

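Between sites, 0 of the 21 pairs of gene and line passed in any of 120 recounts, each of which covered 1 comparison under 1 setting. The count over all genes moved instead. For VQ-D1, t-VK12653, VQ-D2, VQ-D5 and the difference between the first 2 lines it was 0, 1, 6, 1 and 0, but 188, 151, 139, 93 and 82 with no filter, 15, 24, 30, 7 and 4 with DESeq2, and 89, 176, 170, 46 and 111 with the recipient number as replicate block. With the label number as replicate block it was 4, 6 and 3 in VQ-D1, t-VK12653 and VQ-D5. RLE scaling gave 0 in t-VK12653, and additive terms for group and site gave 0, 3 and 2 in t-VK12653, VQ-D2 and VQ-D5. Leaving out 1 library gave 0 to 13 in VQ-D1 (13 without its replicate 3), 0 to 2 in t-VK12653 (2 without its replicate 1), 2 to 6 in VQ-D2 (2 without its replicate 3), 1 to 3 in VQ-D5 (3 without its replicate 3) and 0 to 2 for the difference (2 without VQ-D2 replicate 1 or 2). The cause was not tested.

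None of the site differences that changed sign passed a test. With additive terms these were, on the log2 scale, Nes in VQ-D1 (−0.30), Reln (0.0692), Cntn3 (−0.85) and Cdh19 (−0.42) in t-VK12653, and Cntn5 (−0.0748) and Syndig1l (0.22) in VQ-D2. With the label number as replicate block they were Gabra4 (0.0286), Reln (0.0573) and Cdh19 (−0.0162) in t-VK12653, Gabra4 (0.14), Cntn5 (−0.64) and Syndig1l (0.10) in VQ-D2, and Gabra4 (0.0663), Scn11a (1.15) and Reln (0.00981) in VQ-D5. Gabra4 in VQ-D2 was 0.00845 with RLE scaling, 0.00935 with no filter and 0.00880 with DESeq2. Leaving out 1 library gave −0.0406 to 0.45 for Reln and −0.32 to 0.57 for Nes in VQ-D1, −0.18 to 0.10 for Gabra4 and −0.89 to 1.19 for Cdh19 in t-VK12653, and −0.70 to 1.39 for Cdh19 in the difference between lines. In VQ-D2 it gave −0.10 to 0.10 for Gabra4, −0.12 to 0.31 for Cntn5, −0.60 to 0.25 for Syndig1l and −0.24 to 0.0716 for Nes, and in VQ-D5 −0.20 to 0.0175 for Gabra4, −0.97 to 0.21 for Scn11a and −0.38 to 0.29 for Reln.

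The ratio of Gabra4 in t-VK12653 to VQ-D2 was 0.981 by CPM of the total and 0.862 by TPM, that of Reln in VQ-D5 to VQ-D2 0.983 by TPM, and that of Cntn5 in VQ-D4 to VQ-D2 0.415 to 27.2 with 1 library left out (0.415 without the VQ-D4 liver library). Cdh19 in VQ-D1 was 13.4 times that in VQ-D4 without the liver library, against 2.40. With 1 neighbour on each side 3 were higher and 0 lower. Of 435 recomputed neighbour differences 426 kept their side of the threshold and 9 lost it, for Jrkl and Tsn, and 290 of 290 totals over the gene lists stayed within 1.5 times. Small counts limit the genes near 0 reads, where the text gives reads and bounds.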

Other observations

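Among genes named in the cell type lists, Prox1 and Pecam1 were each high in 1 line while the other markers of their list were not. Erbb3 had a higher mean in all 5 lines than in the controls. Prox1, a transcription factor of lymphatic endothelium, averaged 20.2 CPM in VQ-D2 and 0.546 CPM or less in every other group, whereas Lyve1 stood at 0.0372 CPM, Pdpn at 0.0362 CPM and Ccl21a at 0 reads in VQ-D2. Pecam1, an endothelial and leukocyte adhesion protein, averaged 225.3 CPM in VQ-D1 and 42.0 CPM in controls, with Cdh5 at 0.367 CPM and Emcn at 0 in VQ-D1. Erbb3, a neuregulin receptor of Schwann cells and epithelia, averaged 24.8 to 63.1 CPM in the 5 lines and 10.9 CPM in controls. These genes were picked from the lists after their values were seen, and no test of them was run.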
